A study of Mus musculus with 50 samples.

Results

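The comparison described here is that of resting CD8+ T cells from the spleens of knockout mice (KO) and wild-type mice (WT), before any activation in culture. Its members were chosen by label: the 0h libraries of KO mice 1 to 5 and of WT mice 1 to 5, which are 10 of the 50 libraries of the series. The comparison was made unpaired with all 10 libraries, and again with the 8 libraries that remain without WT mice 1 and 4. Those mice were set apart in earlier work on these data for a thymocyte-like, cycling profile. In the whole series, cells of both genotypes were also cultured for 2, 6, 12 or 24 h on plate-bound anti-CD3e with soluble anti-CD28. The mice were 10 weeks old, the strain background is spelled C567BL/6J in the labels, and each library is 1 mouse. KO mice carry a targeted allele and the controls are labelled wild type. Whether the mice of both genotypes shared litters or a day of isolation is not given in the sources used here. All 10 libraries come from cells taken with anti-CD8a beads, so other spleen cells that carry CD8a or stick to the beads can be among them.

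A resting CD8+ T cell is a killer T cell that has not yet met its antigen, or a memory cell between encounters. Resting naive cells divide rarely and keep genes of quiescence and lymph node homing on. Memory and virtual memory cells, the second formed without foreign antigen, carry Cd44, Il2rb and Cxcr3. Type I and type II interferons switch on a shared set of antiviral genes in most cell types. Their tonic, low-level action is visible in resting T cells.

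The smallest library held 12773186 counts and the largest 30145628, and the median library total was 23074830. Levels are given as CPM, counts scaled to a fixed library total after TMM scaling of the totals, a scaling that sets the bulk of genes equal between libraries. WT mice 1 and 4 stood apart from the other 8 mice. Rag1, which cuts antigen receptor genes during their assembly in the thymus, reached 389 and 288 CPM in them, but lay at 0.120 to 0.315 CPM in WT mice 2, 3 and 5, and at 0.0755 to 13.4 CPM in KO. KO mouse 4 held that highest KO value. WT mice 1 and 4 also held the most RNA of G2 and mitosis genes, which added up to 10487 and 8925 CPM, while WT mice 2, 3 and 5 had 338 to 448 CPM and KO mice 646 to 2106 CPM. The 14 genes of mature CD8 T cells added up to 3696 and 5582 CPM in these mice and to 13089 to 34870 CPM in the other 8. Cd8a itself was at 276 and 481 CPM in them, at 1366 to 1662 CPM in KO and at 1703 to 3052 CPM in the remaining WT mice.

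WT mouse 3 stood apart in another way. Its 50 most abundant genes took 23.8% of all counts, against 8.83% to 14.8% in the other 9 libraries. The 79 cytosolic ribosomal protein genes summed to 183631 CPM in it, to 22448 to 39180 CPM in the others apart from KO mouse 3, and to 60616 CPM in KO mouse 3. These same mice, KO 3 and WT 3, gave the libraries with the fewest counts. Within WT the lowest Spearman rho between libraries was 0.703, and within KO it was 0.950.

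**Figure D1:**
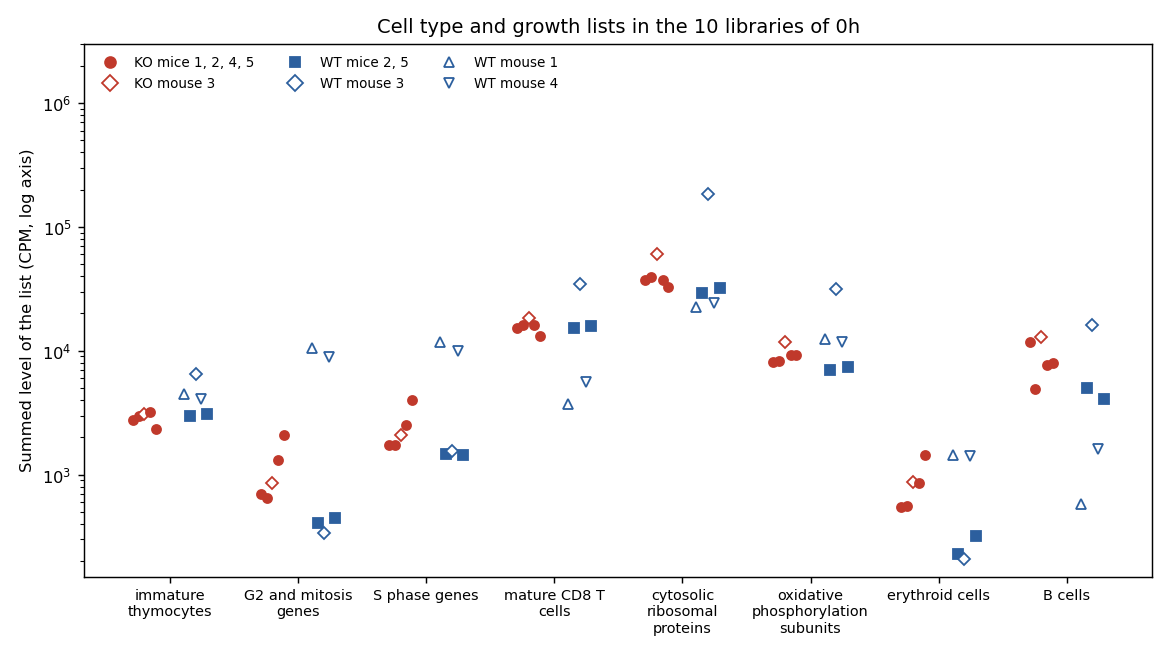
Summed level in CPM (log axis) of 8 gene lists in each of the 10 libraries at 0h, 1 marker per mouse, red for KO and blue for WT. WT mice 1 and 4 (triangles) lie highest for the S phase and G2 and mitosis lists and lowest for mature CD8 T cell genes, and WT mouse 3 (blue diamond) is highest for ribosomal protein and oxidative phosphorylation genes.

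With all 10 libraries, edgeR's quasi-likelihood test called 0 of 11967 genes at a Benjamini-Hochberg adjusted p under 0.05, which is 0% of the genes tested. At an unadjusted p under 0.05 it listed 448 genes with a higher level in KO (3.74%) and 620 with a lower one (5.18%). DESeq2 called 98 genes in the KO-high direction (0.819%) and 39 in the other (0.326%), and limma-voom called 0, with or without sample quality weights. In the 8 libraries without WT mice 1 and 4 the edgeR test again called 0, of 12194 genes, with 776 (6.36%) and 705 (5.78%) at an unadjusted p under 0.05. In these 8 libraries DESeq2 called 376 (3.08%) and 52 (0.426%) genes, and limma-voom called 0. limma-voom with sample quality weights, which weighs each library by how closely it follows the others of its group, called 1141 (9.36%) and 1203 (9.87%), and it gave WT mouse 3 a weight of 0.0594. The spread between the mice of a group was wide: the common dispersion of the counts was 0.311 with all libraries and 0.188 without WT mice 1 and 4. Hspa1a and Hspa1b were called by edgeR when WT mouse 3 was left out of the 10, and Rnf157 when it was left out of the 8. Rnf157 was far higher in WT mice 1 and 4 than in any other mouse. Its call thus depends on leaving these mice out and is not read as a result.

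Since edgeR called no gene in either set of libraries, the genes below are described by their level in each mouse, by whether the 2 genotypes overlapped, and by the size of the difference with its standard error (SE). Differences are log2 KO minus WT from edgeR, and a value of 1 is a doubling. The median difference of all genes tested was -0.10 with all libraries and -0.03 without WT mice 1 and 4. With library totals as the only scale these medians became -0.01 and 0.17, so list medians are to be read against them. In all 10 libraries, every KO mouse was above every WT mouse for 219 genes (1.83%) and below for 160 (1.34%). With library totals 207 of the 219 were still above and 53 of the 160 still below. In the 8 libraries without those WT mice, 843 genes (6.91%) were above and 597 (4.9%) below. These 4 shares of all genes are what each list count at 0h is to be read against.

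With all 10 libraries, interferon-stimulated genes had more members above WT in every KO mouse than any other list tested. In the 8 libraries G2 and mitosis genes had more, 25 of 38, against 6.91% of all genes. That count follows the choice of libraries, since WT mice 1 and 4 were left out for a cycling profile, and is not read as a result. Of 67 interferon-stimulated genes tested, 21 were above WT in every KO mouse and 0 below with all 10 libraries. The shares of all genes were 1.83% and 1.34%, and edgeR called 0. The median difference of the list was 0.92, and 65 of the 67 differences were above 0. Leaving out WT mice 1 and 4, 22 genes were above, among them the same 21, against 6.91% of all genes, and the median was 0.47. In those 8 libraries limma-voom with sample quality weights called 36 of the 67 higher in KO and 2 lower, against 9.36% and 9.87% of all genes. The summed level of the list was 11310.0 to 12704 CPM in KO, 9025 to 10340.0 CPM in WT mice 2, 3 and 5 and 1554 and 2923 CPM in WT mice 1 and 4. In bulk samples, fewer cells of a type and less RNA per cell cannot be told apart.

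Ifi44, an interferon-induced protein, had the smallest p of all genes in the comparison of all mice. It was at 10.5, 7.44, 21.3, 9.05 and 18.4 CPM in KO mice 1 to 5 and at 0.947, 0.603, 2.10, 1.23 and 2.44 CPM in WT mice 1 to 5. Every KO library was more than 3 times as high as the highest WT library. The difference was 3.20 ± 0.50 (SE), at an edgeR adjusted p of 0.249. Without WT mice 1 and 4 it was 2.96 ± 0.60, with an edgeR adjusted p of 0.205, and DESeq2 gave adjusted p values of 6.43e-08 and 3.30e-05.

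Iigp1, a GTPase that attacks the vacuole of intracellular parasites, was the leading gene without WT mice 1 and 4. KO mice had 87.8, 77.7, 76.6, 45.9 and 83.0 CPM and WT mice 0.784, 8.41, 10.9, 2.20 and 16.3 CPM, in mouse order. WT mice 1 and 4 were the lowest, and the other 3 WT mice were still far under every KO mouse. The difference in the 8 libraries was 2.62 ± 0.32, and the edgeR adjusted p was 0.192.

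Mx1, which blocks influenza virus, was at 59.3, 44.5, 39.3, 55.7 and 75.7 CPM in KO and 0.621, 19.3, 13.8, 4.76 and 24.6 CPM in WT. Oas1a, a sensor of double-stranded RNA, was at 37.8, 32.6, 60.8, 38.0 and 47.7 CPM in KO and 7.16, 10.4, 20.7, 10.2 and 18.9 CPM in WT. Both were without overlap, and the difference of Mx1 was 2.12 ± 0.71 with all mice and 1.48 ± 0.29 without WT mice 1 and 4. For Oas1a it was 1.69 ± 0.33 and 1.37 ± 0.31. Igtp, a GTPase of the same family as Iigp1, was at 272, 311, 362, 251 and 373 CPM in KO and 26.2, 167, 161, 53.6 and 179.7 CPM in WT.

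Usp18 and Rtp4, also members of the list, were looked up after their values were seen. Usp18, which switches off type I interferon signalling, was at 97.7, 75.8, 109.9, 87.1 and 119 CPM in KO and 8.69, 30.96, 61.1, 14.6 and 46.1 CPM in WT. Rtp4 was at 80.1, 79.1, 96.4, 91.5 and 110.5 CPM in KO and 24.1, 50.4, 47.6, 30.6 and 61.7 CPM in WT, again without overlap.

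Other interferon-stimulated genes without overlap in both sets were Oasl2, Trim30d, Parp9, Phf11d, Irgm1, Irgm2, Gbp2, Gbp3, Gbp4, Tgtp1, Tgtp2, Lgals3bp and Ms4a4c. The receptor subunits Ifnar2 and Ifngr1 were also above WT in every KO mouse, while Ifnar1 was below WT mice 2, 3 and 5. Isg15 and Irf7, well known members of the same list, overlapped: Isg15 was at 31.8, 36.7, 37.9, 42.1 and 62.2 CPM in KO and 9.02, 22.2, 58.0, 10.2 and 25.8 CPM in WT, with WT mouse 3 among the highest. Leaving out WT mouse 3 moved its difference from 0.75 to 1.32 with the other 9 libraries. Tgtp1 and Tgtp2 are near-identical copies, so their reads could be split between them.

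**Figure D2:**
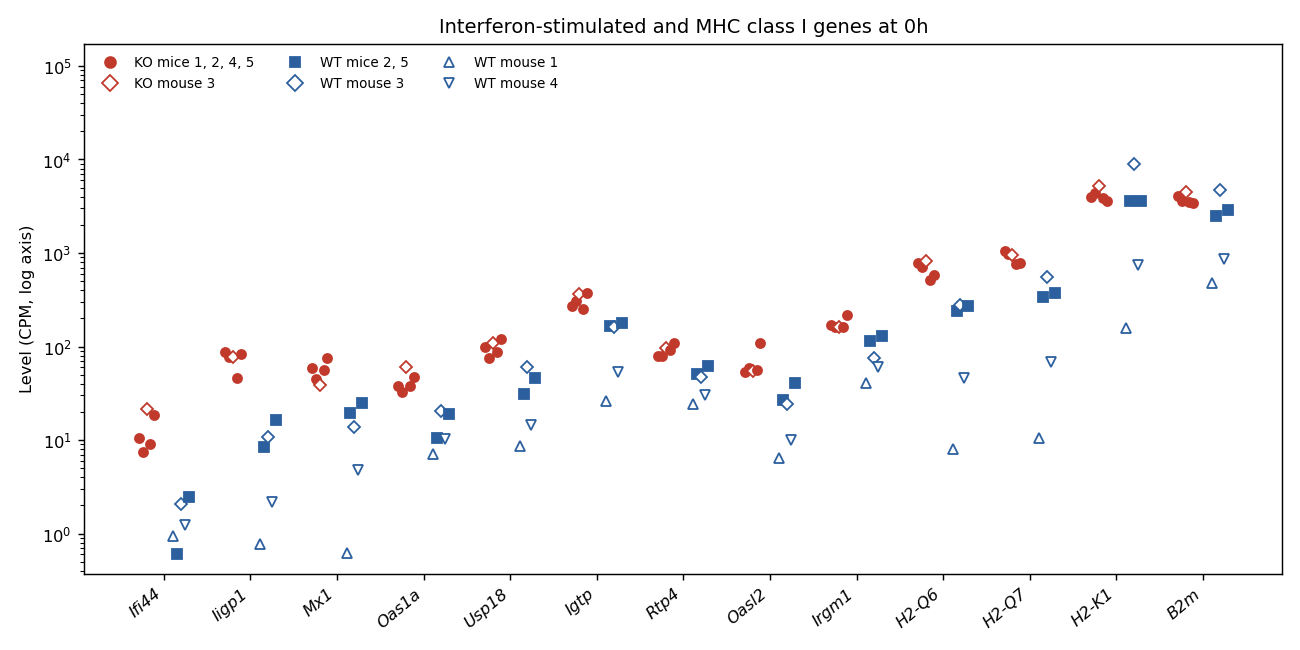
Level in CPM (log axis) of interferon-stimulated and MHC class I genes in each mouse at 0h, red for KO and blue for WT. From Ifi44 to H2-Q7 every KO mouse lies above every WT mouse, while H2-K1 and B2m overlap.

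Promoters of these genes are shown because many of the list hold a short DNA motif there, the interferon-stimulated response element. Proteins of the IRF family bind to it. The motif searched was GAAA, any 2 bases, and GAAA again, which reads as TTTC, any 2 bases, and TTTC on the other strand. Both strands were searched in windows from 250 bases before to 50 bases after each RefSeq start (GRCm38.p6). Overlapping matches were counted once per gene. The motif was in 3.84% of the genes tested that had a window (359 of 9361) and in 55.8% of the interferon-stimulated genes (29 of 52). Among those above WT in every KO mouse with a window it was in 64.3% (9 of 14). A match describes the sequence and does not show that a factor was bound in these cells. The windows of Ifi44, Oasl2, Phf11d, Lgals3bp and Ms4a4c, also without overlap, held no match. The windows of 4 genes without overlap follow, picked because they hold a match. Each is 300 bases on the strand of its gene, with the matches in capitals.
Oas1a, chr5:120907476-120907775, minus strand: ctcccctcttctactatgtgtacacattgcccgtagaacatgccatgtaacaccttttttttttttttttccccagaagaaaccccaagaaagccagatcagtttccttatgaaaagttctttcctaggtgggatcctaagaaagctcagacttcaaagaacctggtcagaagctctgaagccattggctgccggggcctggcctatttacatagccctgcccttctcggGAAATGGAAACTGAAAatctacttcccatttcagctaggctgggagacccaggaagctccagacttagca
Igtp, chr11:58199306-58199605, plus strand: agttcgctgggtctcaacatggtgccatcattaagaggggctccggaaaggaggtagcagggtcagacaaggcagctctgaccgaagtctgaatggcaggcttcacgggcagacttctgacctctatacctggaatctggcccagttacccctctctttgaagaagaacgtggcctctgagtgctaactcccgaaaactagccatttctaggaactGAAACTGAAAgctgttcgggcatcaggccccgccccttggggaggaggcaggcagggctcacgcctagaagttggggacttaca
Irgm1, chr11:48871371-48871670, minus strand: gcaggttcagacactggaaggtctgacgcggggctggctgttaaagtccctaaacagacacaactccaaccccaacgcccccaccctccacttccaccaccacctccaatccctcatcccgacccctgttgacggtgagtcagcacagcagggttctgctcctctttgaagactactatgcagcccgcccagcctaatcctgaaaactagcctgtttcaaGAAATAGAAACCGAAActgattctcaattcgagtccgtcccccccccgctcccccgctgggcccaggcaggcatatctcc
Gbp3, chr3:142559794-142560093, plus strand: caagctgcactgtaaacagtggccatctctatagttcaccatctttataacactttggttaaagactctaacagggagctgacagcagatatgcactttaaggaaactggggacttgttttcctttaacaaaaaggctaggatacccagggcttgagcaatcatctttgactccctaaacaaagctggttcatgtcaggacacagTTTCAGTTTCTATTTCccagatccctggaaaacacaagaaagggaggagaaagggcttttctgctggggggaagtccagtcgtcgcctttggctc

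In these 4 windows the first match began 20 bases (Oas1a), 34 bases (Igtp), 30 bases (Irgm1) and 45 bases (Gbp3) before the start. Oas1a, Irgm1 and Gbp3 each held 2 overlapping matches. Irgm1, whose GTPase guards against the attack of its relatives on the cell's own membranes, was at 171, 164, 163, 164 and 219 CPM in KO and 41.0, 114, 75.9, 60.2 and 131 CPM in WT. Gbp3, a guanylate-binding protein, was at 48.8, 44.4, 52.2, 40.3 and 63.0 CPM in KO and 9.15, 28.7, 25.5, 12.8 and 30.7 CPM in WT. Both were without overlap. Outside the list, 15 of 146 genes above WT in every KO mouse and with a window held the motif (10.3%).

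MHC class I genes, which present peptides to CD8 T cells, were split. Of 23 genes of class I and its peptide supply, 3 were above WT in every KO mouse in both sets of libraries: H2-Q6, H2-Q7 and H2-T22, and edgeR called 0. The shares of all genes above WT were 1.83% and 6.91%. The median difference was 0.47 with all mice and 0.10 without WT mice 1 and 4, and leaving out WT mouse 3 moved these to 0.85 and 0.22. H2-Q6, a non-classical class I gene, was at 778, 713, 822, 515 and 580.1 CPM in KO and 8.07, 238, 278, 46.4 and 268 CPM in WT. WT mice 2, 3 and 5 were close to each other and well under the lowest KO mouse, with a difference of 1.37 ± 0.21 in the 8 libraries and an edgeR adjusted p of 0.196. H2-Q7 was at 770.3 to 1051 CPM in KO and 335 to 551 CPM in WT mice 2, 3 and 5. Reads of the H2-Q genes can match several of them, so which of the genes differed is uncertain. The classical H2-K1 and the shared light chain B2m overlapped, at 3607 to 5177 and 3408 to 4484 CPM in KO and at 3559 to 8856 and 2468 to 4716 CPM in WT mice 2, 3 and 5.

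Immediate early genes answer signals within minutes, and the AP-1 factors Fos and Jun are the best known. Of 46 tested, 3 (Fos, Jun and Rgs1) were above WT in every KO mouse and 1 (Maff) below, against 1.83% and 1.34% of all genes, and edgeR called 0. Jun was at 393, 437, 297, 197 and 197 CPM in KO and 15.3, 89.3, 63.8, 25.3 and 108 CPM in WT. Fos was at 494, 558, 321, 289 and 264 CPM in KO and 33.7, 102, 70.2, 45.7 and 171 CPM in WT. KO mice 1 and 2 were the highest for both genes and the lowest KO mice were above every WT mouse. The difference of Fos was 2.19 ± 0.45 with all mice (edgeR adjusted p 0.481), and that of Jun 1.78 ± 0.35 without WT mice 1 and 4 (edgeR adjusted p 0.198). Other early genes did not share this: Egr1 was at 33.7 to 48.1 CPM in KO and 33.7 to 56.7 CPM in WT, Nr4a1 at 20.4 to 41.3 and 20.1 to 45.8 CPM, and Cd69 at 89.8 to 132 CPM in KO against 94.6 to 115 CPM in WT mice 2, 3 and 5. The median of the list was 0.31 with all mice and 0.06 without WT mice 1 and 4, where 5 genes were below WT (Fosl2, Dusp2, Zfp36l1, Maff and Per1), against 4.9% of all genes. Leaving out WT mouse 3 moved these medians to 0.56 and 0.03.

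Heat shock chaperones refold proteins after heat or other stress. The inducible Hsp70 genes Hspa1a and Hspa1b stood far apart between the genotypes. Hspa1b was at 419, 602, 493, 179.9 and 144 CPM in KO and 8.33, 16.5, 95.4, 11.5 and 13.9 CPM in WT, and Hspa1a at 222, 295, 277, 89.5 and 64.6 CPM in KO and 3.33, 4.66, 58.4, 3.61 and 4.07 CPM in WT. WT mouse 3 was the highest WT mouse for both, and KO mice 4 and 5 were the lowest in KO. The difference of Hspa1b was 3.66 ± 0.78 with all mice, and 4.87 without WT mouse 3, where edgeR called both genes. The 2 genes are near-identical copies, so reads can be shared between them. Of the 22 chaperones tested, Hspa5 was the third above WT in every KO mouse and Hsf2, a heat shock factor, was below. The constitutive Hspa8 overlapped, at 424 to 729 CPM in KO and 315 to 1738 CPM in WT. In the 8 libraries Hsp90aa1 and Hsp90ab1 were above as well, which made 5 of 23, against 6.91% of all genes. The median of the list was -0.14 with all mice and 0.21 without WT mice 1 and 4, and -0.05 and 0.33 with WT mouse 3 left out as well.

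Memory and virtual memory genes stood on the KO side for a set of members. Of 57 tested, 11 were above WT in every KO mouse and 0 below, and edgeR called 0. They were Cd44, Il2rb, Cxcr3, Ly6c2, Ccr2, Cd38, Il18r1, Il18rap, Samd3, Hopx and Plac8, and without WT mice 1 and 4 Itgb1 and Id2 joined them. The shares of all genes above WT were 1.83% and 6.91%, and in the 8 libraries limma-voom with sample quality weights called 11 members higher and 2 lower. The median of the list was 0.56 with all mice and 0.14 without WT mice 1 and 4, and 1.07 and 0.48 with WT mouse 3 left out as well. Its summed level did not separate the genotypes, at 7306 to 8942 CPM in KO and 6593 to 10893 CPM in WT mice 2, 3 and 5.

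Ly6c2, a surface protein of memory CD8 T cells and monocytes, was at 385, 178, 584, 276 and 465 CPM in KO and 7.22, 59.5, 68.3, 26.3 and 103 CPM in WT. Cxcr3, the receptor for the interferon-induced chemokines, was at 149, 36.1, 104, 62.2 and 141 CPM in KO and 1.31, 18.0, 11.2, 6.49 and 19.9 CPM in WT. KO mouse 2 was the lowest KO mouse for both. The difference of Ly6c2 was 2.27 ± 0.41 and that of Cxcr3 2.56 ± 0.50 in the 8 libraries, with an edgeR adjusted p of 0.196 for each. Ly6c2 has a near-identical neighbour, Ly6c1.

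Cd44, an adhesion receptor, was at 103, 52.1, 92.5, 67.9 and 121 CPM in KO and 23.8, 46.1, 18.6, 31.4 and 41.1 CPM in WT. Il2rb, the receptor chain for interleukins 2 and 15 that marks virtual memory cells, was at 610.3, 284, 305, 350.2 and 698 CPM in KO and 40.2, 271, 172, 86.0 and 275 CPM in WT. KO mouse 2 was again the lowest in KO for both, only just above the highest WT mouse. Samd3, a gene of memory and NK cells, was at 82.8, 11.2, 36.3, 24.8 and 47.8 CPM in KO and 0.621, 5.26, 5.77, 2.02 and 7.75 CPM in WT. Eomes and Tbx21, the transcription factors of memory and effector cells, overlapped by 1 KO mouse each: Eomes was at 56.4 to 208 CPM in KO and 41.1 to 57.8 CPM in WT mice 2, 3 and 5, and Tbx21 at 17.1 to 54.6 and 9.35 to 19.4 CPM.

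Several members did not separate at all. The lectin-like receptors Klrd1 and Klrk1 were at 108 to 251 and 10.7 to 35.6 CPM in KO and at 201 to 299 and 13.4 to 41.3 CPM in WT mice 2, 3 and 5. The chemokine Ccl5 was at 124 to 329.9 CPM in KO and 109 to 518 CPM in these WT mice, with WT mouse 3 the highest. Itga4 was at 221 to 612 and 234 to 640.2 CPM.

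**Figure D3:**
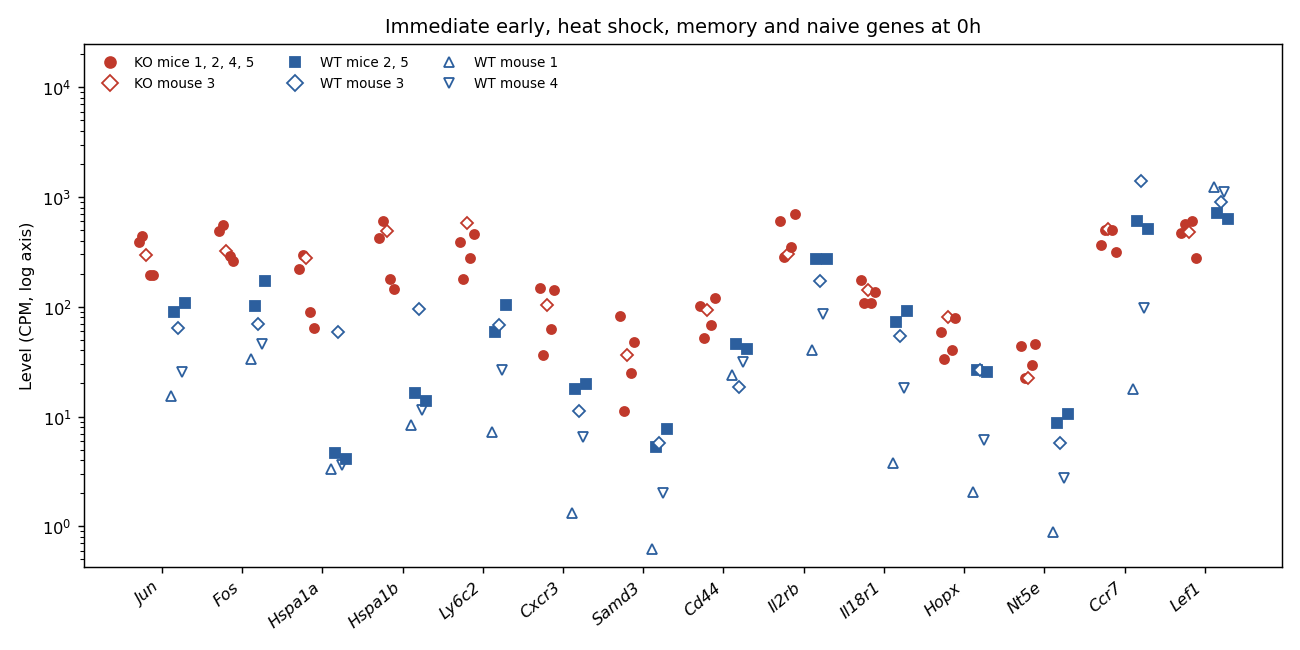
Level in CPM (log axis) of immediate early, heat shock, memory and naive T cell genes and of Nt5e in each mouse at 0h, red for KO and blue for WT. Cxcr3, Ly6c2 and Cd44 lie higher in every KO mouse than in every WT mouse, and Ccr7 overlaps. Lef1 lies lower in every KO mouse, by a small margin.

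Cytotoxic granule genes showed the same mixture. Of 21 tested, Serpinb9, Lamp1 and Stx11 were above WT in every KO mouse, against 1.83% of all genes, and edgeR called 0. Stx11, which acts in granule release, was at 12.6, 9.44, 13.8, 8.13 and 13.2 CPM in KO and 6.04, 5.83, 6.29, 6.89 and 5.75 CPM in WT. Serpinb9, the inhibitor of granzyme B, was at 32.4 to 57.4 CPM in KO and 9.67 to 29.7 CPM in WT. The killing genes Prf1 and Gzmb overlapped, Prf1 at 77.3 to 108 CPM in KO and 80.5 to 95.9 CPM in WT mice 2, 3 and 5, and Gzmb at 1.81 to 56.3 and 4.40 to 10.5 CPM. Gzma, another granzyme, was at 12.1 to 50.6 CPM in KO and 15.6 to 70.0 CPM in those WT mice, while WT mice 1 and 4 had 622 and 537 CPM. The list median was 0.52 with all mice and 0.33 without WT mice 1 and 4, and 0.90 with all mice but WT mouse 3.

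Among 16 cytokines and chemokines, Cxcl10 and Tnfsf8 were above WT in every KO mouse, and the median was 1.11 with all mice and 0.81 without WT mice 1 and 4. Cxcl10, an interferon-induced ligand of Cxcr3, was low throughout, at 2.41, 2.13, 2.19, 1.77 and 3.18 CPM in KO and 0.0327, 0.603, 1.05, 0.252 and 0.999 CPM in WT. Ifng overlapped, at 0.0755 to 8.82 CPM in KO and 0.196 to 2.44 CPM in WT. Among 37 cytokine receptor and signal genes, 6 were above WT in every KO mouse: Il2rb, Il18r1, Il18rap, Ifnar2, Ifngr1 and Socs3. Socs3, a feedback inhibitor of cytokine receptors, was at 251, 202, 204, 166 and 210.0 CPM in KO and 14.4, 151, 111, 31.4 and 129.6 CPM in WT. Their list median was 0.40 with all mice and 0.03 without WT mice 1 and 4. Of 15 inhibitory receptor genes, Nt5e and Lair1 were above WT in every KO mouse, and in the 8 libraries Vsir was below. Nt5e (CD73), which makes adenosine outside the cell, was at 43.8, 22.4, 22.4, 29.7 and 45.4 CPM in KO and 0.882, 8.75, 5.77, 2.78 and 10.5 CPM in WT, a difference of 1.94 ± 0.35 in the 8 libraries. The median of that list was 0.60 in both sets, and 1.01 and 1.28 with WT mouse 3 left out as well. edgeR called 0 genes in each of these 3 lists. The share of all genes above WT was 1.83% with all mice, and that below was 4.9% in the 8 libraries.

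Genes of naive cells and of the T cell receptor lay slightly on the WT side once WT mice 1 and 4 were left out. Of 38 naive and quiescence genes, 6 (Lef1, Foxo1, Foxo3, Foxp1, Elf4 and Rflnb) were below WT mice 2, 3 and 5 in every KO mouse and 1 (Art2b) was above, against 4.9% and 6.91% of all genes. The median was -0.27, and -0.07 with library totals, where all genes moved to 0.17. limma-voom with sample quality weights called 14 of the 38 lower and 1 higher in the 8 libraries. Lef1, a transcription factor of naive and immature T cells, was at 467, 564, 477, 609 and 281 CPM in KO and 1242, 712, 894, 1120.1 and 629 CPM in WT, below WT in every KO mouse in both sets. KO mouse 5 was the lowest, and the margin between KO mouse 4 and WT mouse 5 was small. This separation rests on TMM scaling. With library totals only 53 of the 160 genes below WT with all mice stayed below. Foxo1, which keeps naive cells quiescent, was at 207 to 283 CPM in KO and 331 to 396 CPM in WT mice 2, 3 and 5. The homing receptor Ccr7 overlapped by a small margin, at 315 to 516 CPM in KO and 516 to 1405 CPM in these WT mice, and Tcf7 was at 1128 to 1908 and 1879 to 2130.5 CPM.

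Of 35 genes of the T cell receptor complex and its first signalling steps, 9 were below WT mice 2, 3 and 5 in every KO mouse: Cd3e, Cd8a, Cd5, Cd6, Plcg1, Vav1, Prkcq, Sla2 and Dgkz, against 4.9% of all genes. With all 10 libraries this held for 0 of the 35. The count of 9 rests on TMM scaling, where WT mouse 3 had the lowest factor, 0.719. With library totals only 53 of the 160 genes below WT with all mice stayed below. Fewer than these 9 may thus be below on that scale, which was not counted for the list. The median of the list was -0.37 in the 8 libraries, -0.11 with library totals and -0.16 without WT mouse 3, and with all mice it was -0.06, and 0.15 without WT mouse 3. Prkcq, a kinase that links the receptor to NF-kB, was at 389 to 537 CPM in KO and 547 to 1043 CPM in WT mice 2, 3 and 5. Plcg1, the phospholipase that starts calcium signalling, was at 349.8 to 448 and 479 to 567 CPM.

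**Figure D4:**
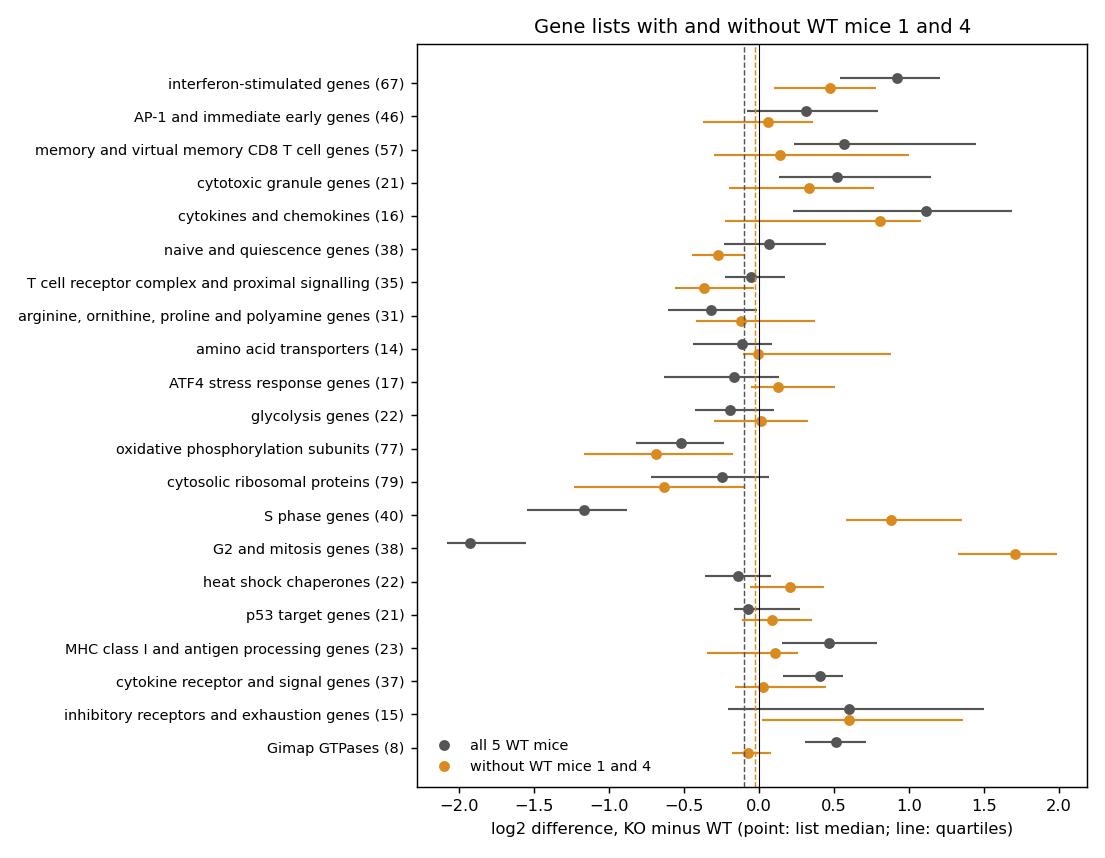
Median (point) and quartiles (line) of the log2 difference, KO minus WT, over the tested genes of each list at 0h, with all mice (grey) and without WT mice 1 and 4 (orange). Numbers in parentheses are genes tested with all mice, and dashed lines are the medians of all genes. The interferon list keeps its quartiles above both dashed lines in both sets, and the S phase and G2 and mitosis lists change side.

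Cell cycle genes follow the choice of libraries, since WT mice 1 and 4 were set apart by these genes, and no test is given for them. With all mice the medians were -1.17 for S phase and -1.93 for G2 and mitosis. In the 8 libraries they were 0.88 and 1.71. Mki67, the common marker of dividing cells, was at 89.8, 88.7, 106, 159 and 304 CPM in KO. WT mice 2, 3 and 5 had 51.1, 32.4 and 57.6 CPM of it, and the cycling WT mice had 1495 and 1293 CPM. KO mouse 5 was the highest of KO and lay between the 2 kinds of WT mice. Erythroid genes moved with the cell cycle lists across mice. Their summed level was 552, 557, 879, 861 and 1429 CPM in KO mice and, in the order of mice 1 to 5, 1452, 228, 208, 1408 and 319.9 CPM in WT, where mice 1 and 4 were the highest. Of the 16 erythroid genes, 10 were above WT mice 2, 3 and 5 in every KO mouse, against 6.91% of all genes, with a list median of 2.47, while 0 were with all mice. Aqp1, Sptb and Mboat2, named as genes with the smallest p in the 8 libraries, had the same pattern. Aqp1, a water channel of red cells, was at 70.1, 69.8, 139.7, 119.5 and 215 CPM in KO, 15.9, 9.96 and 21.7 CPM in WT mice 2, 3 and 5 and 183 and 190.1 CPM in WT mice 1 and 4. The part of erythroid cells in other differences was not tested.

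Metabolic lists showed few genes apart from WT. Of 31 genes of arginine, ornithine, proline and polyamine metabolism, Paox, which breaks down acetylated polyamines, was below WT in every KO mouse, and 0 were above. The shares of all genes were 1.34% below and 1.83% above. Paox was at 4.47, 4.39, 3.17, 5.47 and 5.52 CPM in KO and 13.3, 7.67, 11.4, 11.6 and 5.87 CPM in WT. In the 8 libraries, Gatm, Oat, Odc1 and Pycr1 were above and Paox and Aldh4a1 below, against 6.91% and 4.9% of all genes. Odc1, the first enzyme of polyamine synthesis, was at 27.7 to 50.1 CPM in KO, 19.2 to 20.4 CPM in WT mice 2, 3 and 5 and 91.7 and 87.0 CPM in WT mice 1 and 4. Gatm, the first enzyme of creatine synthesis, was at 21.1 to 60.4, 3.95 to 9.11 and 34.5 and 38.6 CPM in these 3 sets. The list median was -0.32 with all mice, and -0.12 without WT mice 1 and 4, where library totals turned it to 0.12. Leaving out WT mouse 3 as well turned it to 0.16. Of 17 genes of the ATF4 response, 3 (Asns, Psat1 and Psph, enzymes of amino acid synthesis) were above WT mice 2, 3 and 5 in every KO mouse and 0 below. Of 14 amino acid transporters, Slc7a7, Slc38a5 and Slc43a1 were above and Slc1a5 and Slc43a2 below, with a list median of -0.12 with all mice and -0.01 in the 8 libraries, which library totals turned to 0.16. The ATF4 and transporter counts in the 8 libraries are to be read against the same 6.91% and 4.9%. With all mice 0 genes of either list were above or below. Asns was at 14.6 to 52.4, 3.38 to 4.99 and 52.99 and 56.4 CPM in KO, in WT mice 2, 3 and 5, and in WT mice 1 and 4.

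The medians of 77 oxidative phosphorylation genes and 79 ribosomal protein genes rested on WT mouse 3. They were -0.69 and -0.64 in the 8 libraries and 0.46 and 0.41 when WT mouse 3 was left out too. Ndufa2, a subunit of complex I, was at 1305 CPM in WT mouse 3 and at 48.4 to 143 CPM in the other 9 mice. Glycolysis genes gave a median of -0.19 with all mice and 0.01 in the 8 libraries, and Pfkm and Slc16a1 were above WT mice 2, 3 and 5. The p53 targets gave -0.08 and 0.09, with Sesn1 below WT in the 8 libraries. For these 8 libraries the shares of all genes were 6.91% above and 4.9% below. Gimap GTPases gave 0.51 and -0.07. Leaving out WT mouse 3 moved these 3 pairs of medians to -0.10 and 0.12, to -0.02 and 0.05, and to 0.76 and 0.03.

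Genes outside the lists were named by their p in the edgeR test. Prss34, a basophil protease, was at 7.87, 6.26, 5.96, 6.99 and 12.1 CPM in KO and 2.42, 1.44, 1.99, 2.42 and 1.60 CPM in WT, with a difference of 1.99 ± 0.35 and an edgeR adjusted p of 0.468. Mcpt8, Fcer1a, Hdc and Cpa3, other genes of basophils and mast cells looked up after this value was seen, were also above WT in every KO mouse. Mcpt8 was at 5.85, 4.31, 6.19, 3.71 and 8.98 CPM in KO and 0.882, 0.637, 3.25, 0.938 and 0.280 CPM in WT. All were low, and Fcer1a was at 0.968 to 3.91 CPM in KO. Of all genes, 1.83% were above WT in this way. These genes came from no list set beforehand, and how many other genes of these cells overlapped was not counted.

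On the lower side with all mice were Slc25a23, Rasal1, Camk4, Fntb and Wwp2. Camk4, a calcium-dependent kinase of T cells, was at 109, 138, 75.6, 124 and 103 CPM in KO and 329, 167, 199.7, 288 and 159.6 CPM in WT. Rasal1, which turns off Ras, was at 22.4, 25.3, 21.0, 22.9 and 18.0 CPM in KO and 39.9, 36.0, 43.6, 35.8 and 29.8 CPM in WT. Fntb, a subunit of the farnesyltransferase that anchors Ras proteins, was at 30.6, 38.0, 25.7, 36.3 and 28.1 CPM in KO and 51.0, 54.6, 102, 50.1 and 51.2 CPM in WT. All 5 genes were without overlap in both sets. Their differences ranged from -1.09 (Wwp2) to -0.76 (Rasal1) with all mice, and without WT mouse 3 from -1.17 (Slc25a23) to -0.69 (Rasal1). In the 8 libraries the named genes on this side were Fntb, Mrtfa, Habp4, Phyhd1 and Madd. Mrtfa, a coactivator that senses actin, was at 181, 211, 148, 163 and 147 CPM in KO and 299, 459 and 247 CPM in WT mice 2, 3 and 5, and at 42.5 and 76.1 CPM in WT mice 1 and 4. Id3, which restrains memory and effector genes, was looked up after its value was seen, and was at 48.4, 62.1, 53.7, 61.4 and 48.3 CPM in KO and 100.2, 70.1, 84.0, 91.6 and 74.1 CPM in WT.

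Markers of other cell types were present in every library. The 19 B cell genes summed to 4884 to 12989 CPM in KO, 4056 to 16024 CPM in WT mice 2, 3 and 5 and 583 and 1610.4 CPM in WT mice 1 and 4, and 0 of the 19 were above or below in every KO mouse. The 8 plasma cell genes summed to 1036 to 6443, 1075 to 3593 and 396 and 924 CPM, and Ighg2c alone was above WT in every KO mouse. Ighg2c, an antibody heavy chain with near-identical relatives, was at 3613, 587, 504, 1161 and 1026 CPM in KO and 28.6, 145, 246, 85.8 and 130.4 CPM in WT, with KO mouse 1 far above the others. Monocyte and macrophage genes summed to 106 to 171 CPM in KO and to 49.8 to 89.6 CPM in WT, without overlap, and 2 of 12 (Ccr2 and Mpeg1) were above in every KO mouse. Mpeg1, a macrophage pore-forming protein, was at 9.26 to 22.3 CPM in KO and 4.40 to 7.84 CPM in WT. Of the 9 genes of gamma delta and innate-like T cells, the receptor segments Tcrg-C1 and Tcrg-C4 were above WT in every KO mouse, Tcrg-C1 at 5.44 to 17.8 CPM in KO and 1.24 to 4.75 CPM in WT. The share of all genes above WT in every KO mouse was 1.83%. Neutrophil genes summed to 78.1 to 194 CPM in KO and 38.9 to 113 CPM in WT. NK cell genes summed to 103 to 279.5 CPM in KO and 87.4 to 151 CPM in WT mice 2, 3 and 5, and dendritic cell genes to 424 to 535 and 458 to 702 CPM. Il17a and Gp6 were at 0 counts in all 10 libraries, and Ly6g, which defines neutrophils, had 11 counts over all of them. The part of these cells in the interferon, memory and early gene differences was not tested.

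Cells of the same mice were followed after activation, and the interferon genes were counted in the same way at each time. At 2h, 31 of 66 interferon-stimulated genes were above WT in every KO mouse, against 3.92% of all genes. The 6h libraries gave 8 of 67 (6.23% of all genes) and the 12h libraries 4 of 66 (14.9%). By 24h it was 4 of 64 above and 7 below, against 3.46% and 3.26%. Without WT mice 1 and 4 the counts were 33, 16, 16 and 10, against 7.15%, 12.8%, 26.1% and 6.94% of all genes. In that set 0 were below WT at 2h and at 6h, 2 at 12h (26% of all genes) and 12 at 24h (7.31%), so that more of the 64 were below than above in the 24h libraries. The change of this difference with time was not tested. Of the 21 genes without overlap at 0h, 14 still showed none at 2h, and later 4, 0 and 1 did. Iigp1 was at 314 to 458 CPM in KO and 81.6 to 253 CPM in WT at 6h.

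H2-Q6 was above WT in every KO mouse at all 5 times, at 180.4 to 210.2 CPM in KO and 22.8 to 70.9 CPM in WT at 24h. Ly6c2 was so at 0h, 2h and 24h, at 31.3 to 62.8 CPM in KO and 9.01 to 17.7 CPM in WT at 24h. Memory genes above WT in every KO mouse numbered 16 of 56 at 2h, then 7 of 55, 8 of 54 and, in the last samples, 13 of 52, beside 3.92%, 6.23%, 14.9% and 3.46% of all genes. The 8 of 54 at 12h are thus at the share of all genes. Without WT mice 1 and 4 the counts were 19, 9, 10 and 18, beside 7.15%, 12.8%, 26.1% and 6.94% of all genes. The 10 of 54 at 12h are under that share. In this set 7 were below WT at 12h (26% of all genes) and 2 at 24h (7.31%). Hspa1b was below its 0h level in every mouse at 2h, at 3.89 to 9.02 CPM in KO and 0.757 to 2.23 CPM in WT at 2h. Jun stayed apart until 12h, at 66.0 to 72.8 CPM in KO and 7.59 to 37.7 CPM in WT, and overlapped at 24h. Immediate early genes above WT in every KO mouse numbered 7, 12, 19 and 4 of 46 in the order of the later times, beside the shares of all genes given above. Those below numbered 0, 1, 2 and 5, and the share of all genes below at 24h was 3.26%. At 24h more were thus below than above, Fos among them. Without WT mice 1 and 4, 9, 15, 26 and 7 were above, beside the shares given for that set.

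**Figure D5:**
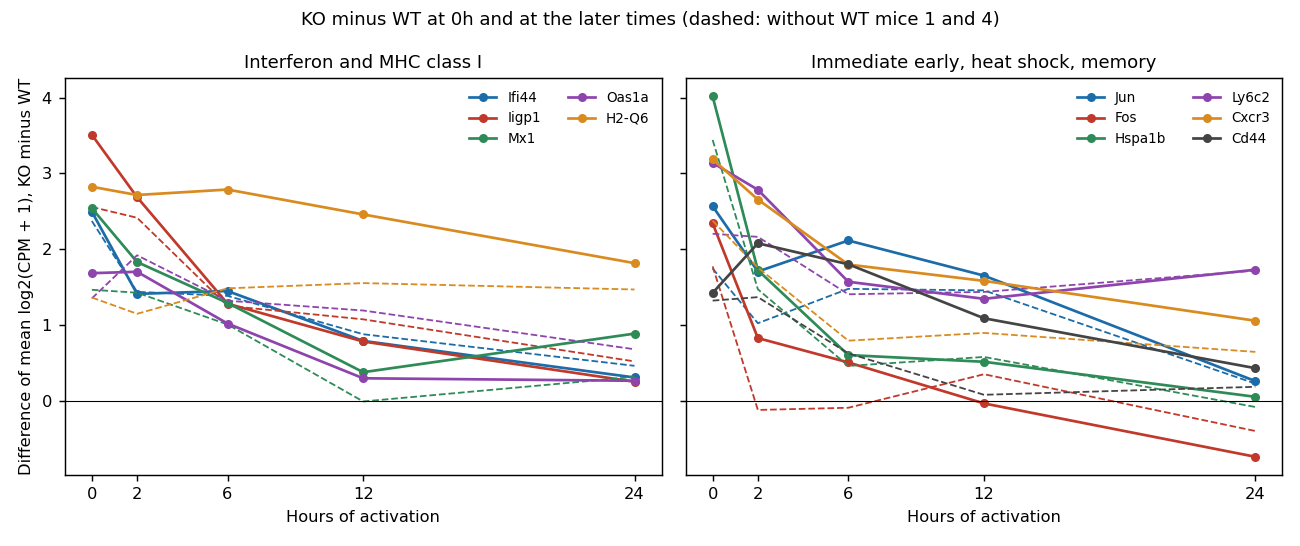
KO minus WT difference in mean log2(CPM + 1) against hours of activation for genes named above, with all mice (solid) and without WT mice 1 and 4 (dashed). The interferon genes Ifi44 and Iigp1 lie closer to 0 at 24 h than at 0 h, while H2-Q6 and Ly6c2 remain above 1.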

How the data were processed

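Per the labels' protocols, mRNA of splenic CD8+ T cells was turned into stranded libraries and read from 1 end over 50 nt. Tools in the submitters' processing notes are featureCounts 1.4.6, STAR 2.4 and CASAVA 1.8.2, with the build GRCm38. The annotation release, the strand setting and the handling of reads with several matches are not given in the sources used here, so near-identical copies and antisense partners are uncertain. The authors deposited raw counts per gene for 50 libraries, and 0 columns were left out. Of 21647 gene identifiers, 21583 were matched to a GENCODE symbol.

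The 10 libraries of 0h were fitted with edgeR 4.0.16 (R 4.3.3): filterByExpr by genotype, TMM scaling and a robust quasi-likelihood test without pairing, with Benjamini-Hochberg adjustment over all genes tested and a threshold of 0.05. The fit was repeated with the 8 libraries without WT mice 1 and 4. CPM values use TMM-scaled library sizes. DESeq2 1.42.0, limma-voom (limma 3.58.1), other scalings, no filter, a replicate block, all times in 1 fit and leaving out each mouse were alternatives. Replicate counts differed in every pair. Library totals were 12773186 to 30145628 counts.

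Members and gene lists were chosen with earlier results of these data known. Genes were named by a rule. Where edgeR called 0 genes, it takes the 5 per direction with the smallest p whose higher group averages 5 CPM or more, in each set of libraries, plus up to 5 per list with the smallest p without WT mice 1 and 4. The text gives a selection of these, made after their values were seen, and says where it adds others. The targeted gene and its check are not reported here. Promoter sequences are those of RefSeq on GRCm38.p6.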

Additional observations from a re-analysis of the deposited data

Results flagged for a closer look

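Single mice stood far from the other 4 of their genotype in 12 of 86 groups of 5 values examined, by the size of the gap to the nearest mouse relative to the range of the group. Chance alone marks about 1 in 20 such groups. The gaps are given as values, without an explanation.

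In WT, mouse 3 was far above the other mice for summed ribosomal protein genes at 183631 CPM, for oxidative phosphorylation subunits at 31459 CPM, for B cell genes at 16024 CPM, for Hspa1a at 58.4 CPM and for Hspa1b at 95.4 CPM. Its 50 most abundant genes took 23.8% of its counts, and its TMM factor of 0.719 was the lowest. In KO, mouse 3 was highest for ribosomal protein genes at 60616 CPM and had the lowest total, 12773186 counts.

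KO mouse 5 was highest for the summed interferon-stimulated genes at 12704 CPM, KO mouse 4 was lowest for Iigp1 at 45.85 CPM, and KO mouse 1 was highest for the antibody gene Ighg2c at 3612.9 CPM. Iigp1 in KO mouse 4 was still above every WT mouse.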

How the results depend on the processing

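The count of genes called by edgeR, 0 in both sets of libraries, stayed 0 with DESeq2 size factors, with library totals, with no filter on low counts and with limma-voom, and with all mice also with sample quality weights. With all mice, DESeq2 called 137 genes and 1 fit of all times 1054, and leaving out each mouse in turn gave 0 to 2. Without WT mice 1 and 4, DESeq2 called 428, limma-voom with sample quality weights 2344 and 1 fit of all times 2964, and leaving out each mouse gave 0 to 1. The fit of all times counts libraries of 1 mouse as independent. The cause of the other differences was not tested. Of the choices added after seeing the data, leaving out the third mouse of each genotype gave 0 and 1, and weighted limma-voom without WT mouse 3 gave 0 and 2472. With a replicate block the count was 0 in both sets. Deviations from the group means in mice of the same number correlated by -0.195, 0.296, 0.291, 0.352 and -0.194. Those in mice of different numbers correlated by -0.309 to 0.407. Since these ranges overlap, whether the numbers pair the mice cannot be told from them. For single genes, 765 of 819 values with all mice stayed on their side of the threshold and 54 passed it, and in the 8 libraries 607 of 756 stayed and 149 passed, and 0 turned direction. Genes under 1 CPM rest on few counts in the smallest libraries.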

Other observations

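Cd24a, Il2ra and Rnf157 stood out in WT mice 1 and 4, were lower in KO and were lowest in WT mice 2, 3 and 5. Cd24a, a surface protein of immature lymphocytes, was at 80.7, 41.1, 125, 94.9 and 132 CPM in KO mice 1 to 5, 14.5, 32.1 and 14.9 CPM in WT mice 2, 3 and 5, with 397 and 356 CPM in the other WT mice. Il2ra, the high-affinity interleukin 2 receptor chain of activated, regulatory and immature T cells, was at 142, 18.1, 18.9, 72.6 and 29.6 CPM in KO and, for WT mice 1 to 5, at 224, 1.78, 6.40, 172 and 4.35 CPM. Rnf157, the gene that edgeR called when WT mouse 3 was also left out, was at 56.2, 33.1, 43.4, 44.1 and 46.5 CPM in KO and at 148, 4.36, 14.3, 114 and 3.59 CPM in WT. KO mice were thus between the 2 kinds of WT mice for these genes. Of 18 tested genes of the immature thymocyte list, 4 (Cd24a, Mns1, Hes1 and Cpa3) were above WT mice 2, 3 and 5 in every KO mouse. Cpa3, also named above among basophil and mast cell genes, lacked the rest of the pattern. It was lowest in WT mice 1 and 4, at 0.980 and 1.23 CPM. Of the same 18, 1 was below, against 6.91% and 4.9% of all genes, so most of the list did not share the pattern. Dntt overlapped, at 7.93 to 36.3 CPM in KO and 8.38 to 31.8 CPM in WT mice 2, 3 and 5. Ptcra did so too, at 0.0430 to 7.49 and 0.0799 to 0.839 CPM. Cd24a, Il2ra and Rnf157 were picked after their values were seen. Since WT mice 1 and 4 were left out for a profile of this kind, no further test is given, and the call of Rnf157 is not read as a result.

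Mpo and Elane, granule genes of neutrophil precursors, were at 81.9, 57.7, 42.6, 57.3 and 119 and 22.3, 14.2, 17.4, 16.8 and 21.5 CPM in KO and at 63.3, 28.5, 36.7, 43.1 and 29.4 and 18.8, 6.87, 11.3, 12.0 and 7.23 CPM in WT. Every KO mouse was above WT mice 2, 3 and 5 for both, while Ly6g, a gene of mature neutrophils, had 11 counts in all 10 libraries together. Mpo and Elane were picked as the 2 of 11 tested neutrophil genes with this pattern, against 6.91% of all genes. Others overlapped: S100a8 was at 1.14 to 6.61 CPM in KO and S100a9 at 0.505 to 14.3 CPM. WT mouse 3 was above every KO mouse for these genes, at 14.7 and 30.3 CPM. Runx2, listed here among dendritic cell genes and also active in memory T cells, was at 33.9, 15.3, 30.8, 18.4 and 39.3 CPM in KO and 1.05, 9.89, 10.2, 3.28 and 11.7 CPM in WT.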
